A study of Mus musculus with 8 samples.

Results

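The comparison described here sets the 3T3-Pax6 cell line directly against the 3T3-Pax6(5a) cell line, and so contrasts the 2 isoforms of 1 transcription factor in the same fibroblast background. Its members were the arrays whose genotype label gives Pax6 or Pax6(5a), which were 5 of the 8 arrays of the series. The Pax6 line has 2 arrays, of RNA from passages 9 and 15. The Pax6(5a) line has 3, of which 2 hold separate RNA preparations of passage 8 and 1 holds RNA of passage 13. Both lines carried the mouse cDNA, under the elongation factor promoter of the vector, at the integration site of Flp-In-3T3, an embryonic fibroblast line built to take up 1 insert at a fixed place, and both were grown in hygromycin without further treatment. The unmodified Flp-In-3T3 line, called the control line below, holds neither cDNA, was grown in Zeocin, and has 3 arrays, of which 2 hold preparations of passage 13 and 1 holds passage 19. It entered the fit only through its estimate of the spread, and its signals are given to show where it stood. Each insert was represented by 1 stable line, and the sources do not say whether same-passage preparations were separate cultures. The p-values therefore reflect only how far the arrays within a line differed, which may be technical. The isoform and any other difference between these 2 lines cannot be told apart.

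Pax6 is a paired-domain and homeodomain transcription factor needed for the development of the eye, the brain and the pancreas. Its paired domain has a pair of subdomains that read DNA. The Pax6(5a) isoform includes the alternatively spliced exon 5a, which adds residues to the first of them, weakens its use of the usual paired-domain site and leaves binding mainly to the other. Both isoforms occur together in eye and brain in vivo, so that lines holding either cDNA alone allow a contrast that those tissues do not. To tell the transcripts apart, the study used a primer pair on either side of exon 5a, whose product is longer when that exon is present. The pair is shown because exon 5a is the difference between the inserts. Each primer is written 5′ to 3′ in lower case and is taken from the study's primer table.
Pax6 forward primer: cagcttggtggtgtctttgtc
Pax6 reverse primer: ctcggataataatctgtctcg
The Pax6 gene lies on chromosome 2 of the mouse. Its probe on the array gave signals of 51.4 and 56.8 in Pax6, 47.4, 50.6 and 47.2 in Pax6(5a), and 45.2, 48.2 and 52.5 in control. It was detected on 0 of the 8 arrays and its difference between the 2 Pax6 lines did not pass a threshold (adjusted p = 0.58). Whether the probe lies within the inserted cDNA is not given in the sources used here, so that it does not check the labels.

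Signals are quantile-normalized intensities throughout, given for the Pax6 line in the order passage 9 and 15, for the Pax6(5a) line in the order of the 2 preparations of passage 8 and then passage 13, and for the control line in the order of the 2 preparations of passage 13 and then passage 19. Detection on an array means a detection p-value below 0.01, and between 10083 and 10685 of 24613 probes were detected per array. The number of arrays limits the precision. The median SD of the log2 signal over all probes was 0.080 for Pax6, 0.089 for Pax6(5a) and 0.093 for control. The log2 signals of a Pax6 and a Pax6(5a) array correlated across probes at 0.9899 to 0.9931, against 0.994 between the 2 Pax6 arrays and 0.994 to 0.997 within the Pax6(5a) line. The 2 Pax6(5a) preparations of passage 8 stood closest, with 20 probes apart by more than 1.5-fold, against 182 and 206 between either of them and passage 13, and 209 between the 2 Pax6 passages. Fibroblast markers bore out the labelled cell type, since 10 of 11 were detected on every array, while 0 of 10 epithelial markers were detected on any array. The summed signal of the fibroblast markers was 46371 to 47159 in Pax6, 50824 to 53844 in Pax6(5a) and 45002 to 58066 in control. In bulk RNA, fewer cells with a transcript and less of it per cell cannot be told apart.

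A small part of the array separated the 2 lines, with genes both higher and lower in Pax6. Calls used the study's thresholds on limma's p-values, adjusted over all probes by Benjamini-Hochberg. Threshold 1 asks for 1.7-fold or more at an adjusted p below 0.001, and threshold 2 for 1.5-fold or more at one below 0.01. Threshold 1 was passed by 41 probes, which is 0.167% of the array, 18 of them higher in Pax6 (0.0731%) and 23 lower (0.0934%). Threshold 2 was passed by 140 probes, or 0.569%, with 56 higher (0.228%) and 84 lower (0.341%). Under median scaling in place of quantile normalization the split became 42 higher and 105 lower at threshold 2, and 13 higher and 30 lower at threshold 1. With 1 probe for each of 15964 genes, the one of highest mean signal, 33 genes (0.207%) passed threshold 1, 14 higher in Pax6 (0.0877%) and 19 lower (0.119%). Threshold 2 was passed by 108 genes (0.677%), with 40 higher (0.251%) and 68 lower (0.426%). At an adjusted p below 0.05 with no limit on fold change there were 412 probes (1.67%), 195 higher (0.792%) and 217 lower (0.882%), and 321 genes (2.01%), 148 higher (0.927%) and 173 lower (1.08%). The arrays of the 2 lines did not overlap for 4600 genes, 28.8% of those tested.

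The count depended on how same-passage preparations were treated and on single arrays. With them averaged, 43 probes passed threshold 2. Without the Pax6 array of passage 9 it was passed by 70 probes, without the Pax6 array of passage 15 by 87, without the first Pax6(5a) array of passage 8 by 72 and without the second by 84, each against 140 with all arrays. The surplus of lower probes did not hold without the Pax6 array of passage 9, where 36 probes were higher and 34 lower at threshold 2, and 16 higher and 9 lower at threshold 1. All 108 genes past threshold 2 kept their direction with each array left out in turn, which follows from their arrays not overlapping. Of these genes 36, 12 higher and 24 lower in Pax6, stayed past threshold 2 each time. A gene past threshold 2 is called higher or lower from here on. Counts of called genes in every list below stand beside 0.251% higher and 0.426% lower over all genes.

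**Figure D1:**
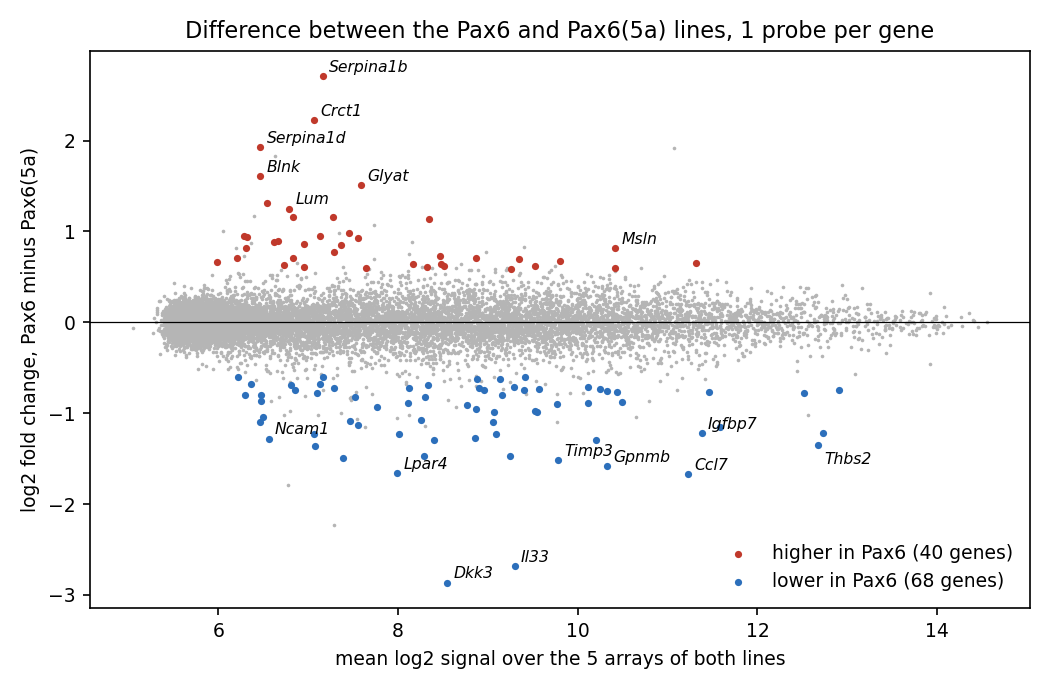
Log2 fold change of each gene between the Pax6 line (2 arrays) and the Pax6(5a) line (3 arrays) on the vertical axis against its mean log2 signal over the 5 arrays of both lines on the horizontal axis, with genes past threshold 2 in colour. The 40 genes higher in Pax6 lie above 0 and the 68 lower genes below it, at fitted fold changes of up to 6.54 and 7.28.

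The called differences were moderate for most genes. The fitted fold change ranged from 1.504 to 6.54 among the higher genes, with a median of 1.76, and from 1.51 to 7.28 among the lower genes, with a median of 1.86. On every array of both lines 83 of the 108 genes were detected, while 20 were below the detection limit in the line where they were lower, 11 of them among the higher genes and 9 among the lower ones. For those, the fold change is given as a lower bound set by the dimmest detected probes of that line's arrays. Of 59 further probes of the 108 genes, 45 ran in the same direction, 5 passed threshold 2 in the same direction and 0 in the opposite one, and 27 of the 59 were detected on any array.

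Passage differed between the lines, so the difference was also taken at 2 stages, as passage 9 of Pax6 minus the mean of the passage 8 preparations of Pax6(5a), and as passage 15 of Pax6 minus passage 13 of Pax6(5a). All 108 genes ran in the same direction at both stages, which follows from their arrays not overlapping and is no sign of stability. The difference exceeded 1.5-fold at both stages for 92 of them, 32 of 40 higher and 60 of 68 lower genes. The median log2 difference of the higher genes was 0.78 at the earlier and 0.83 at the later stage, and that of the lower genes was -0.96 at the earlier and -0.81 at the later stage. The control line stood nearer to Pax6(5a) than to Pax6 for 84 of the 108 genes and nearer to Pax6 for 24. Nearness was counted for the called genes alone, so no share over all genes can be set beside it. Over all probes, 690 to 943 differed by 1.5-fold or more between a Pax6 and a control array. Between a Pax6(5a) and a control array the number was 422 to 716. The control mean lay below both lines for 23 of the 40 higher genes, and above both lines for 31 of the 68 lower genes.

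**Figure D2:**
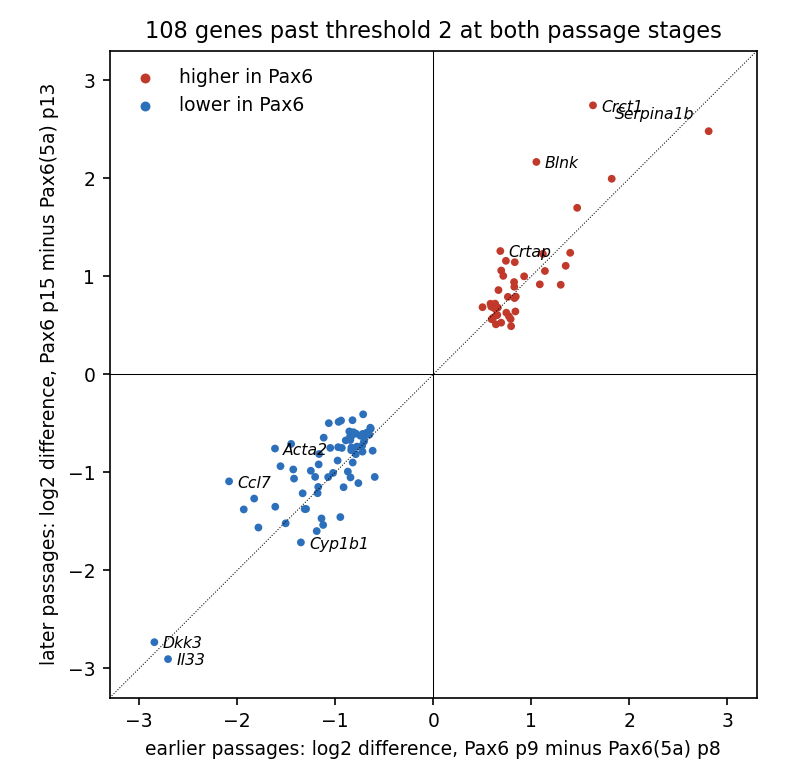
Log2 difference of the Pax6 line from the Pax6(5a) line at the earlier passages (horizontal axis, passage 9 against passage 8) and at the later passages (vertical axis, passage 15 against passage 13) for the 108 genes past threshold 2, 1 point a gene. All points lie in the quadrants where both stages share a sign, and 92 exceed 1.5-fold at both.

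Among the genes higher in Pax6, Serpina1b had the largest fitted difference, and its neighbour Serpina1d on chromosome 12 was higher as well. They encode alpha-1-antitrypsins, secreted inhibitors of neutrophil elastase made mainly by the liver, and belong to a mouse family of near-identical copies, so that the assignment of a probe to 1 copy is uncertain. Serpina1b gave signals of 432 and 453 in Pax6, against 60.0, 63.5 and 81.3 in Pax6(5a) and 52.6, 64.9 and 58.1 in control. It was detected on both Pax6 arrays, on 1 of 3 Pax6(5a) arrays and on 0 of 3 control arrays, and was at least 5.65-fold higher in Pax6 than in Pax6(5a) (adjusted p = 4.1e-07). Its second probe was higher as well (adjusted p = 2.1e-05). Serpina1d was at 179 and 218 in Pax6 and was not detected in Pax6(5a), at 50.8, 50.4 and 54.6, nor in control. That is at least 2.55-fold higher in Pax6 (adjusted p = 5.5e-06). The probes of Serpina1a and Serpina1e were not detected on any array.

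The promoter windows of Serpina1b and Serpina1d are shown because the probes assigned to these neighbouring copies were both higher in Pax6. No array value is given here for Serpina1c. Each window holds 300 bases around the annotated start, most of them before it, on the minus strand of GRCm38.p6, and is taken from RefSeq. The capitals mark the longest run of bases that the windows share, 64 bases, at chr12:103738140-103738439 for Serpina1b and at chr12:103773584-103773883 for Serpina1d.
Serpina1b: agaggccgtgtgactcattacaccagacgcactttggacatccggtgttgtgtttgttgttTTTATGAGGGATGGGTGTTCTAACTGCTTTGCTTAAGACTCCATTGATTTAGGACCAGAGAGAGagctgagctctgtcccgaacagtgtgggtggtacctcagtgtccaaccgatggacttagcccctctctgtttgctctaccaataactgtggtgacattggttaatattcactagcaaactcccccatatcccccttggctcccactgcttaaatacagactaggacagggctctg
Serpina1d: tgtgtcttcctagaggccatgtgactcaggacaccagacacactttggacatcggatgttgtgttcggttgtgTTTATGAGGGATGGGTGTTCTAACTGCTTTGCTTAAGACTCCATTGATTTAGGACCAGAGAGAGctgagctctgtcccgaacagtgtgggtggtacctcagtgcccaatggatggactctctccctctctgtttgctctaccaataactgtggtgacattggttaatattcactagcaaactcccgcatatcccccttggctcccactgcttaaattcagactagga
The same 64-base run is whole in the window of Serpina1e, whose probe was not detected. The longest stretch of it is 21 bases in the window of Serpina1a and 13 bases in that of Serpina1c. Serpina1b shares longer runs with these copies than with Serpina1d, at 72 bases with Serpina1a, 78 with Serpina1c and 119 with Serpina1e. Serpina1d shares runs of 59, 63 and 115 bases with the same copies in that order. The 64-base run is therefore a description of the copies and not a mark of those that were higher.

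Of the 40 genes higher in Pax6, 10 kept the call under every alternative setting. They were Serpina1b, Serpina1d, Glyat, 4930550L24Rik, Lum, Sphk1 and Msln, described here, and Myoz2, Plce1 and Tns1, which the rule for named genes did not choose. Glyat, which joins glycine to acyl groups in mitochondria, was at 385 and 339 in Pax6, against 138, 141 and 104 in Pax6(5a) and 91.2, 84.5 and 89.4 in the control line. The lowest Pax6 array was above the highest Pax6(5a) array, which the rule for genes named by size required. The log2 fold change was 1.51 ± 0.12 (SE), or 2.85-fold (adjusted p = 4.4e-05). The X-linked gene 4930550L24Rik was at 172 and 149 in Pax6 and was not detected in Pax6(5a), at 64.1, 66.9 and 63.1, which is at least 2.07-fold higher in Pax6 (adjusted p = 2.8e-05). Msln, coding for the mesothelial surface protein mesothelin, was brighter in all lines, at 1952 and 1877 in Pax6, 1122, 1058 and 1084 in Pax6(5a), and 566, 579 and 498 in control. It was 1.76-fold higher in Pax6 than in Pax6(5a) (adjusted p = 4.0e-04), and the 3 lines did not overlap.

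Lum and Sphk1 differed from the genes above in where the control line stood. Lum encodes lumican, a proteoglycan of collagen fibrils that is abundant in the cornea, and Sphk1 a kinase that makes sphingosine 1-phosphate. Lum was at 193 and 180 in Pax6, 79.6, 72.3 and 83.4 in Pax6(5a), and 173, 167 and 132 in control, so that the control line lay between them and nearer to Pax6. Its fold change was 2.38 higher in Pax6 (adjusted p = 1.3e-04), with detection on 2 of 3 Pax6(5a) arrays. Sphk1 was at 182 and 186 in Pax6, 75.8, 93.3 and 79.1 in Pax6(5a), and 243, 248 and 236 in control, above both. It was 2.23-fold higher in Pax6 than in Pax6(5a) (adjusted p = 4.7e-05). Crtap, part of the complex that hydroxylates collagen prolines in the endoplasmic reticulum, was at 103 and 135 in Pax6 and was not detected in Pax6(5a), at 63.6, 64.8 and 56.4, at least 1.52-fold higher in Pax6 (adjusted p = 0.0013). Both lines lay far below the control line, which was at 423, 481 and 489. Without the Pax6 array of passage 15 the adjusted p of Crtap was 0.014, within a range of 2.4e-04 to 0.017 over all alternatives.

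A few genes known from epithelia, neurons or B cells were also among the higher ones. Crct1, a gene of the epidermal differentiation cluster on chromosome 3, was at 213 and 533 in Pax6, 70.7, 66.8 and 79.6 in Pax6(5a), and 58.2, 58.9 and 66.2 in control. The Pax6 arrays differed from each other by more than any 2 Pax6(5a) arrays did, and the gene was at least 4.32-fold higher in Pax6 (adjusted p = 8.0e-04). That bound rests on both Pax6 arrays, since the fitted log2 fold change was 2.22 with all arrays and 1.56 without the Pax6 array of passage 15, and was larger without that of passage 9. It lost threshold 2 under neqc, a variance trend with a robust prior and averaging, with adjusted p between 8.9e-07 and 0.037 over all alternatives. Nrcam, a neuronal adhesion molecule of the immunoglobulin family, was at 209 and 205 in Pax6, 121, 99.5 and 103 in Pax6(5a), and 68.4, 75.8 and 74.4 in control, 1.93-fold higher in Pax6 (adjusted p = 3.1e-04, with 5.2e-05 to 0.011 over all alternatives and threshold 2 lost under neqc). Gria3, a subunit of AMPA-type glutamate receptors, was at 289 and 239 in Pax6, against 133, 139 and 127 in Pax6(5a) and 167, 159 and 126 in control, 1.98-fold higher (adjusted p = 0.0012). The adjusted p of Gria3 was 0.022 without the Pax6 array of passage 9, within 6.9e-06 to 0.024 over all alternatives. Blnk, an adaptor of B cell receptor signalling, was at 117 and 254 in Pax6 and was not detected in Pax6(5a) or control, at least 2.23-fold higher (adjusted p = 0.0042). It lost threshold 2 without any 1 of the 3 Pax6(5a) arrays, the Pax6 array of passage 15 or the first control array (adjusted p = 0.011 to 0.026, within 9.7e-05 to 0.096 over all alternatives).

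The remaining higher genes named by size were Klra22, Mgarp, Mboat1 and Fhl1. Klra22, listed under the name of an inhibitory receptor family of natural killer cells with many near-identical copies, was 2.24-fold higher at 225 and 279 in Pax6 and 112, 93.7 and 134 in Pax6(5a). Mgarp, a protein of mitochondria, was 2.20-fold higher at 563 and 485 in Pax6 and 259, 202 and 257 in Pax6(5a). Mboat1, a lysophospholipid acyltransferase, was 1.90-fold higher at 280 and 274 in Pax6 and 151, 164 and 124 in Pax6(5a). In each of these genes the lowest Pax6 array exceeded the highest Pax6(5a) array, which the rule for genes named by size required. Fhl1, a LIM protein of muscle and other contractile cells, was detected in Pax6 alone, at 101 and 133, and was at least 1.499-fold higher. Each of these calls, that of Fhl1 included, was lost when certain single arrays were left out. The adjusted p of Klra22 was 0.014 without the first Pax6(5a) array of passage 8 and 0.029 without the Pax6 array of passage 15 (range over all alternatives 6.3e-06 to 0.049). That of Mgarp was 0.011 to 0.044 without either Pax6 array or either Pax6(5a) array of passage 8 (1.9e-04 to 0.079 over all alternatives). That of Mboat1 was 0.014 without the Pax6 array of passage 9 (1.2e-04 to 0.022), and that of Fhl1 0.012 without that of passage 15 (2.3e-04 to 0.017).

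**Figure D3:**
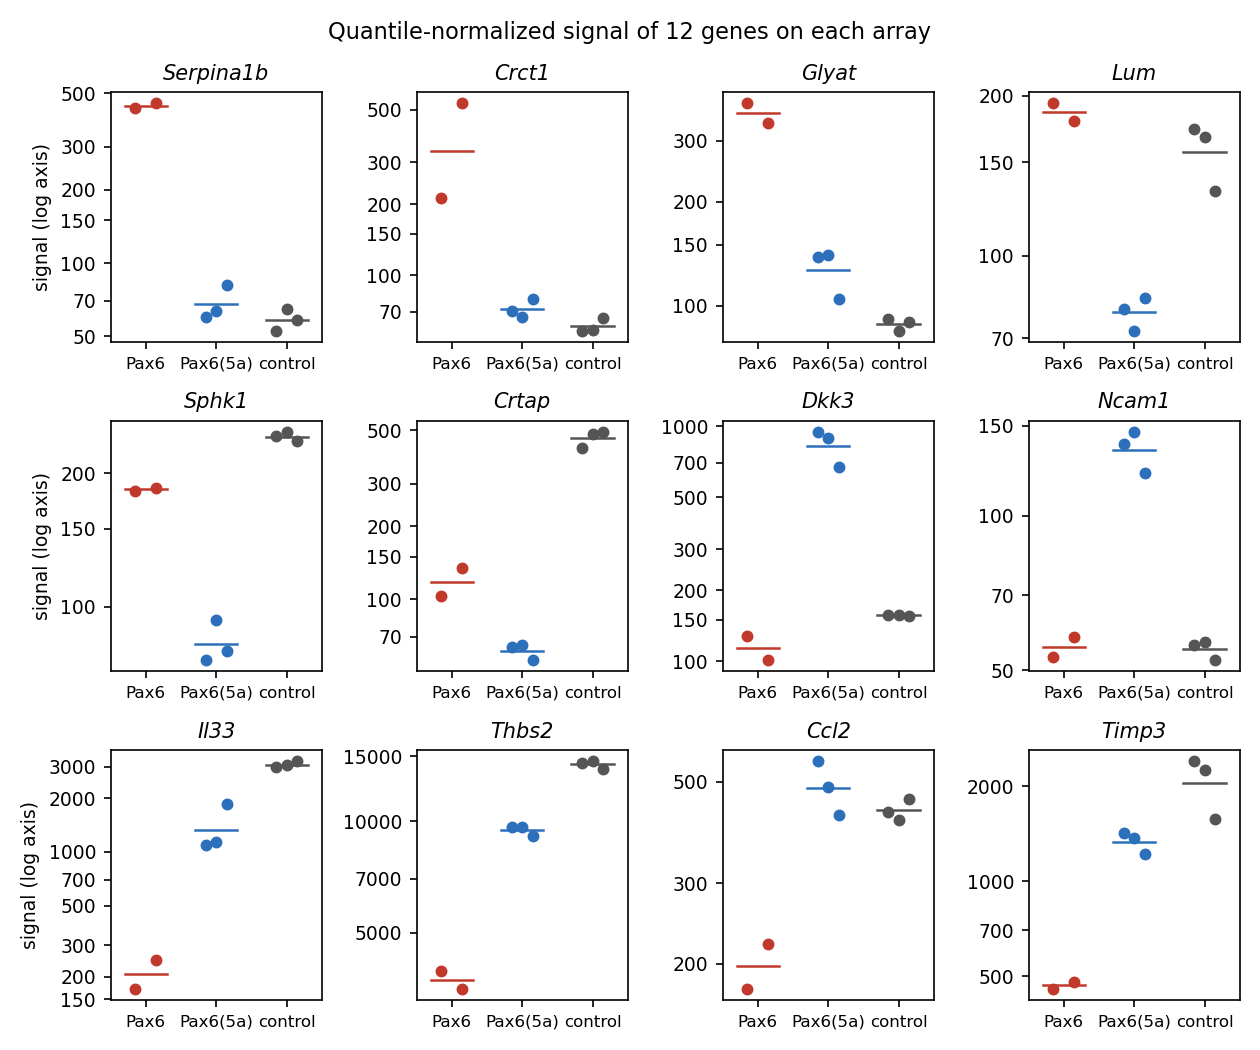
Quantile-normalized signal on a log axis of 12 genes on each array of the Pax6, Pax6(5a) and control lines, from left to right, with each point an array and each line the mean of the log2 signals. Serpina1b, Crct1, Glyat, Lum, Sphk1 and Crtap are higher in Pax6, and Dkk3, Ncam1, Il33, Thbs2, Ccl2 and Timp3 are lower. The 12 were named by size, a rule that required no overlap of their Pax6 and Pax6(5a) arrays.

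For 15 of the 68 genes lower in Pax6, the control signal lay nearer to the Pax6 line than to Pax6(5a). They include Dkk3, Ncam1, Pdgfb and Ngef, described here, and Angpt2, Mcam, Acta2, H2bc4 and H1f2, described below. Dkk3 encodes a secreted glycoprotein of the Dickkopf family, whose other members block Wnt signalling. It was at 128 and 101 in Pax6, against 943, 893 and 674 in Pax6(5a) and 157, 158 and 156 in control. The log2 fold change was -2.86 ± 0.14 (SE), the largest fitted value of the called genes (adjusted p = 4.1e-07), though that of Serpina1b is known only as a bound. Ncam1, the neural cell adhesion molecule, was not detected in Pax6, at 53.0 and 58.0, or in control, at 56.0, 56.6 and 52.4, and was detected on all 3 Pax6(5a) arrays, at 138, 145 and 121. It was thus higher in Pax6(5a) by at least 1.68-fold (adjusted p = 2.3e-05). Both genes kept their calls under every alternative. Pdgfb, a subunit of platelet-derived growth factor, had the same order, with 58.2 and 58.8 in Pax6, 119, 144 and 103 in Pax6(5a), and no detection in control. Its difference was at least 1.503-fold (adjusted p = 0.0012), with an adjusted p of 0.015 without the Pax6 array of passage 9 and 0.011 without that of passage 15 (4.9e-05 to 0.016 over all alternatives). Ngef, an exchange factor that acts downstream of Eph receptors, was at 1472 and 2454 in Pax6, 3880, 4043 and 4810 in Pax6(5a), and 1010, 994 and 1396 in control. It was 2.22-fold lower in Pax6 than in Pax6(5a) (adjusted p = 0.0089). That call was lost without any 1 of 6 arrays, the exceptions being the Pax6 array of passage 15 and the control array of passage 19 (adjusted p = 0.016 to 0.097, within 1.9e-06 to 0.097 over all alternatives).

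The lower genes included a few cytokines and chemokines. Il33, an alarmin of the interleukin 1 family, was at 171 and 248 in Pax6, 1100, 1137 and 1857 in Pax6(5a), and 2989, 3058 and 3217 in control. The 3 lines were thus ordered without overlap, with a log2 fold change of -2.68 ± 0.20 (SE) in Pax6 against Pax6(5a), or 6.42-fold lower (adjusted p = 2.2e-05). The neighbouring chemokine genes Ccl2 and Ccl7 on chromosome 11, which draw monocytes, were lower together. Ccl2 was at 176 and 221 in Pax6, 553, 487 and 423 in Pax6(5a), and 428, 413 and 459 in control, 2.46-fold lower (adjusted p = 1.5e-04). Ccl7 was at 1002 and 1432 in Pax6, 4361, 4134 and 3052 in Pax6(5a), and 4673, 4287 and 4004 in control, 3.18-fold lower (adjusted p = 1.9e-04). For both chemokines the control arrays overlapped with those of Pax6(5a) and lay above those of Pax6. Of 35 cytokine and chemokine genes on the array these 3 were lower, Il15 was higher and 31 were not called, against 0.426% lower and 0.251% higher over all genes. The median log2 fold change was -0.03 over the 35 and 5.01e-04 over all genes. Il15, which sustains natural killer and memory T cells, was at 482 and 475 in Pax6, 301, 306 and 262 in Pax6(5a), and 268, 260 and 233 in control, 1.65-fold higher (adjusted p = 0.0020). Without the Pax6 array of passage 9 or 15 its adjusted p was 0.025 or 0.016 (9.8e-05 to 0.025 over all alternatives). Ccl7 lost threshold 2 under neqc (adjusted p = 0.013, within 1.9e-05 to 0.013 over all alternatives).

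Secreted matrix and insulin-like growth factor binding proteins were also among the lower genes. Of 73 matricellular, proteoglycan and other matrix genes, 5 were lower in Pax6 and 2 higher, with a median log2 fold change of -0.0021. Among all genes 0.426% were lower and 0.251% higher. Thbs2, thrombospondin 2, a matrix protein that binds cell receptors and growth factors, was at 3928 and 3521 in Pax6, 9677, 9634 and 9122 in Pax6(5a), and 14438, 14546 and 13833 in control. The 3 lines did not overlap, and the gene was 2.55-fold lower in Pax6 than in Pax6(5a) (adjusted p = 5.5e-06). Igfbp4, which binds insulin-like growth factors, was at 631 and 748 in Pax6, 1580, 1550 and 1940 in Pax6(5a), and 3386, 3534 and 3041 in control, 2.45-fold lower (adjusted p = 1.0e-04). Its relative Igfbp7 was at 1696 and 1520 in Pax6, 3869, 3817 and 3524 in Pax6(5a), and 4823, 5060 and 3798 in control, 2.33-fold lower (adjusted p = 1.8e-04). In these 3 genes every control array except the Igfbp7 value of passage 19 lay above all Pax6(5a) arrays, and the calls held under every alternative. Emilin2, an elastic fibre glycoprotein, was 1.86-fold lower at 168 and 215 in Pax6 and 319, 380 and 361 in Pax6(5a). Its adjusted p was 0.0015, and 0.023 without the Pax6 array of passage 9 (7.2e-05 to 0.023 over all alternatives). Lamc1, a laminin chain, was the fifth lower gene of the list, at 412 and 457 in Pax6 and 655, 664 and 689 in Pax6(5a). The 2 higher genes were Lum, above, and Lamb3, a laminin chain of epithelial basement membranes. Lamb3 was at 131 and 155 in Pax6 and 71.8, 75.9 and 83.4 in Pax6(5a), where 1 of 3 arrays detected it, and was at least 1.80-fold higher (adjusted p = 8.8e-04). Its adjusted p was 0.013 without the Pax6 array of passage 15 (2.0e-05 to 0.018 over all alternatives).

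Of 87 proteases and their inhibitors, Serpina1b and Serpina1d were higher and Timp3 was lower, with a median log2 fold change of -0.0090. Timp3, an inhibitor of metalloproteinases bound to the matrix, was at 456 and 479 in Pax6, 1422, 1368 and 1221 in Pax6(5a), and 2400, 2255 and 1574 in control, 2.85-fold lower (adjusted p = 1.9e-04). It lost threshold 2 under neqc alone (adjusted p = 0.011, within 4.1e-06 to 0.011 over all alternatives). Of 47 collagen and collagen processing genes, Crtap was the 1 called gene, and the median was -0.04.

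Adhesion molecules were divided. Of 82 on the array, Nrcam, Msln and Cdh5 were higher and Ncam1 and Mcam lower, with a median log2 fold change of -0.03. Cdh5, the cadherin of endothelial junctions, was at 867 and 868 in Pax6, 504, 497 and 618 in Pax6(5a), and 311, 350 and 309 in control, 1.62-fold higher (adjusted p = 0.0045). Of 8 endothelial markers 6 were not detected on any array, the defining Pecam1, Kdr and Tek among them, and Egfl7 was the 1 detected besides Cdh5 and was not called. The summed signal of the 8 was 1329 to 1343 in Pax6, 947 to 1081 in Pax6(5a) and 761 to 786 in control. These sums include Cdh5 itself, the 1 called member of the 8. Mcam, an adhesion molecule of vessels and melanoma, was 1.71-fold lower at 92.9 and 106 in Pax6 and 172, 192 and 149 in Pax6(5a). Both calls were lost without either Pax6 array or either Pax6(5a) array of passage 8, at adjusted p = 0.024 to 0.046 for Cdh5 (0.0012 to 0.046 over all alternatives) and 0.010 to 0.049 for Mcam (6.5e-04 to 0.049). The call of Cdh5 was also lost without the first control array (adjusted p = 0.010).

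Single guidance and growth factor genes were called. Of 63 ephrin, semaphorin and other axon guidance genes, 3 were lower, 0 higher and 60 not called, with a median log2 fold change of 0.0078, against 0.426% lower and 0.251% higher over all genes. Besides Ngef these were Sema5a, a transmembrane semaphorin, and Plxna2, a semaphorin receptor. Sema5a was at 494 and 501 in Pax6, 804, 828 and 866 in Pax6(5a), and 797, 768 and 804 in control, 1.67-fold lower (adjusted p = 3.6e-04) under every alternative. Its second probe, detected on all 8 arrays, was not called (adjusted p = 0.78). That probe was at 89.6 and 98.1 in Pax6 and 101, 101 and 98.3 in Pax6(5a). Plxna2 was 1.54-fold lower (adjusted p = 0.0021), which was lost without either Pax6 array or the second Pax6(5a) array of passage 8 (adjusted p = 0.011 to 0.033, within 6.1e-04 to 0.033 over all alternatives). Of 50 secreted growth factors, Pdgfb, Gas6 and Angpt2 were lower and 0 higher, with a median of -0.08. Gas6, the ligand of the TAM family of receptor kinases, was at 82.6 and 71.6 in Pax6, of which 1 array detected it, 199, 178 and 217 in Pax6(5a), and 541, 599 and 357 in control. It was lower by at least 2.41-fold (adjusted p = 0.0015), with an adjusted p of 0.010 without the first Pax6(5a) array of passage 8 and 0.020 without the Pax6 array of passage 15 (4.2e-05 to 0.020 over all alternatives). Angpt2, a ligand of the Tie2 receptor, was 1.65-fold lower at 215 and 198 in Pax6 and 378, 343 and 305 in Pax6(5a). Its call was lost without either Pax6 array or either Pax6(5a) array of passage 8 (adjusted p = 0.015 to 0.031, within 2.4e-04 to 0.031 over all alternatives).

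Receptors followed no single direction. Of 75 growth factor and cytokine receptor genes, Lpar4 and Pdgfrb were lower and Pdgfrl was higher, with a median of -0.0093. Lpar4, a receptor of lysophosphatidic acid, was at 106 and 154 in Pax6, 418, 389 and 400 in Pax6(5a), and 751, 731 and 579 in control, 3.15-fold lower (adjusted p = 8.4e-05). It lost threshold 2 under neqc alone (adjusted p = 0.011, within 8.2e-06 to 0.011 over all alternatives). Gpr176, an orphan receptor outside the list, was at 284 and 262 in Pax6, 636, 616 and 725 in Pax6(5a), and 833, 912 and 1046 in control, 2.41-fold lower (adjusted p = 6.5e-05) under every alternative. The receptor for platelet-derived growth factor, Pdgfrb, was at 110 and 114 in Pax6, 185, 176 and 151 in Pax6(5a), and 204, 211 and 201 in control, 1.52-fold lower (adjusted p = 0.0055). Pdgfrl, a secreted relative of that receptor, was at 165 and 154 in Pax6, against 113, 106 and 95.7 in Pax6(5a) and 123, 118 and 117 in control, 1.52-fold higher (adjusted p = 0.0038). Neither was firm. Pdgfrb lost threshold 2 without any 1 array other than the passage 13 array of Pax6(5a) and the passage 19 array of control (adjusted p = 0.012 to 0.065, within 0.0016 to 0.065 over all alternatives). Pdgfrl lost it without either Pax6 array, the second Pax6(5a) array of passage 8 or that of passage 13 (adjusted p = 0.011 to 0.056, within 5.0e-04 to 0.056).

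Of 60 Wnt regulators, Wnt5a was higher and Dkk3 lower, and the median log2 fold change was -0.0050. Wnt5a, a ligand of the noncanonical Wnt pathway, was at 465 and 465 in Pax6, 275, 300 and 323 in Pax6(5a), and 269, 259 and 294 in control, 1.56-fold higher (adjusted p = 0.0035). Its call was lost without either Pax6 array or either Pax6(5a) array of passage 8 (adjusted p = 0.017 to 0.039, within 6.5e-04 to 0.039 over all alternatives). The second probe of Wnt5a, at 141 and 137 in Pax6 and 114, 90.8 and 97.0 in Pax6(5a), ran in the same direction.

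Membrane and metabolic genes outside the signalling lists were among the lower genes with the largest differences. Antxr1, an anthrax toxin receptor that binds collagen, was at 304 and 358 in Pax6, 862, 865 and 1026 in Pax6(5a), and 762, 808 and 960 in control, 2.77-fold lower (adjusted p = 4.4e-05) under every alternative. Gpnmb, a glycoprotein of melanosomes and lysosomes, was at 507 and 879 in Pax6, 1706, 1788 and 2597 in Pax6(5a), and 3900, 3260 and 4680 in control, 2.99-fold lower (adjusted p = 0.0028). Scara5, a receptor for ferritin, was at 66.5 and 121 in Pax6, where 1 array detected it, 239, 232 and 292 in Pax6(5a), and 335, 348 and 369 in control, 2.82-fold lower (adjusted p = 0.0014). Cyp1b1, a cytochrome P450 that oxidizes estradiol and aromatic hydrocarbons, was at 169 and 171 in Pax6, 438, 426 and 560 in Pax6(5a), and 446, 441 and 750 in control, 2.77-fold lower (adjusted p = 0.0018). The 2 lines did not overlap in any of these 4 genes, which the rule for genes named by size required. In Gpnmb and Scara5 all control arrays lay above both lines. Without the Pax6 array of passage 9 the adjusted p was 0.037 for Gpnmb (3.9e-07 to 0.051 over all alternatives) and 0.022 for Cyp1b1 (5.3e-06 to 0.030), and without that of passage 15 it was 0.016 for Cyp1b1. Scara5 lost threshold 2 under neqc (adjusted p = 0.052) and with same-passage preparations averaged (0.025), within 5.3e-06 to 0.052 over all alternatives. Cyp1b1 and the glutathione transferase Gstt3 were the lower genes, and 0 were higher, of 56 genes of glutathione, oxidative stress and xenobiotic metabolism, whose median was 0.03. Gstt3 was 1.61-fold lower (adjusted p = 0.0090), and lost without either Pax6 array, either Pax6(5a) array of passage 8 or the second control array (adjusted p = 0.019 to 0.11, within 0.0018 to 0.11).

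Genes of 2 sugar-adding enzymes were lower. Mgat3, which adds the bisecting N-acetylglucosamine to N-glycans, was at 199 and 193 in Pax6, 426, 410 and 400 in Pax6(5a), and 559, 581 and 445 in control, 2.10-fold lower (adjusted p = 2.4e-04) under every alternative. St6gal1, which adds sialic acid in alpha-2,6 linkage, was at 271 and 329 in Pax6, 608, 570 and 515 in Pax6(5a), and 714, 838 and 806 in control, 1.88-fold lower (adjusted p = 0.0010). They were the called members of 70 glycosyl transferases, with 0 higher and a median log2 fold change of 2.07e-04. The shares over all genes were 0.426% lower and 0.251% higher. The adjusted p of St6gal1 was 0.017 without the Pax6 array of passage 9 (1.8e-04 to 0.017 over all alternatives).

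Histone and interferon-stimulated genes called were all lower in Pax6. Of 39 histone genes, H2ax, H2bc4 and H1f2 were lower and 0 higher, with a median of -0.02. Of all genes, 0.426% were lower and 0.251% higher. H2ax, the variant marked at DNA breaks, was at 580 and 622 in Pax6, 1016, 1107 and 1236 in Pax6(5a), and 890, 930 and 877 in control, 1.86-fold lower (adjusted p = 3.6e-04) under every alternative. H2bc4, a core histone gene, was 1.98-fold lower at 290 and 440 in Pax6, 618, 686 and 832 in Pax6(5a), and 264, 266 and 243 in control. H1f2, a linker histone gene, was 1.84-fold lower at 926 and 1074 in Pax6, 1769, 1560 and 2227 in Pax6(5a), and 611, 526 and 558 in control. For H2bc4 and H1f2 the control line thus lay below both, unlike for H2ax. H2bc4 lost its call without the Pax6 array of passage 9, any of the 3 Pax6(5a) arrays or either control array of passage 13 (adjusted p = 0.013 to 0.069, within 2.8e-04 to 0.069 over all alternatives). H1f2 lost it without either Pax6 array or the first Pax6(5a) array of passage 8 (adjusted p = 0.015 to 0.071, within 2.4e-04 to 0.071). Of 61 interferon-stimulated and antigen presentation genes, Ifitm1, Ifitm3 and Irf1 were lower and 0 higher, with a median of -0.08, and 21 of the 61 were above 0, against 8010 of all 15964 genes. Ifitm3, a membrane protein that restricts virus entry, was at 3869 and 4706 in Pax6, against 6825, 7564 and 7510 in Pax6(5a) and 7756, 7475 and 6498 in control. It was 1.71-fold lower in Pax6 (adjusted p = 0.0027), its relative Ifitm1 1.68-fold (adjusted p = 0.0061) and Irf1, a transcription factor of the interferon response, 1.64-fold (adjusted p = 0.0088). None held with each array left out. Ifitm3 lost its call without the Pax6 array of passage 9 or the second Pax6(5a) array of passage 8 (adjusted p = 0.043 and 0.016, within 6.5e-04 to 0.043). Ifitm1 lost it without either Pax6 array, either Pax6(5a) array of passage 8 or the first control array (adjusted p = 0.013 to 0.095, within 0.0013 to 0.095). Irf1 lost it without any Pax6 or Pax6(5a) array or the first control array (adjusted p = 0.013 to 0.065, within 6.5e-04 to 0.065). A further Irf1 probe, detected on 7 arrays, was not called (adjusted p = 0.70). That probe was at 93.4 and 69.5 in Pax6 and 93.0, 114 and 78.9 in Pax6(5a).

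Of 54 genes of the serum response and of YAP signalling, Acta2 was lower and Fhl1 higher, with a median of -0.04. Acta2, smooth muscle actin, was at 3248 and 5173 in Pax6, 9849, 10041 and 8744 in Pax6(5a), and 5515, 5838 and 5203 in control, 2.32-fold lower (adjusted p = 0.0013). The control arrays lay between the lines and nearer to Pax6. The call of Acta2 was lost under neqc (adjusted p = 0.030), with the label number as a block (0.014) and with same-passage preparations averaged (0.027), within 6.5e-05 to 0.030 over all alternatives. Of 52 kinase cascade and phosphatase genes, Sphk1 was higher and Nfatc1, a calcium-regulated transcription factor, was 1.74-fold lower (adjusted p = 0.0065), with a median of -0.04. Of 39 genes of NF-kappaB and inflammation, Nfkbie, an inhibitor of NF-kappaB, was 1.60-fold lower (adjusted p = 0.0066) and 0 were higher. Of 41 hypoxia and glycolysis genes, Ndrg1, which hypoxia induces in many cell types, was 1.63-fold higher (adjusted p = 0.0093) and 0 were lower, with a median of 0.05. These 3 calls of Nfatc1, Nfkbie and Ndrg1 were lost without most single arrays. The adjusted p without them was 0.012 to 0.099 for Nfatc1 with any array but the control array of passage 19 left out (8.6e-04 to 0.099 over all alternatives). For Nfkbie it was 0.011 to 0.061 without any Pax6 or Pax6(5a) array or the second control array (0.0019 to 0.061). For Ndrg1 it was 0.018 to 0.12 without the Pax6 array of passage 9, any Pax6(5a) array or either control array of passage 13 (0.0012 to 0.12).

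Some lists held no called gene beyond those already described. Crct1 was the 1 called gene of 40 epithelial and keratinocyte genes, Gria3 of 52 neuronal genes, and Gpnmb of 50 autophagy and lysosome genes, whose median was -0.08. In 7 lists 0 genes were called, namely the TGF-beta and BMP pathway (51 genes), cell cycle and DNA replication (75), cholesterol and fatty acid synthesis (39), adipocyte and lipid storage (32), amino acid response and endoplasmic reticulum stress (42), eye, lens and Pax genes (57), and ion pumps, channels and transporters (55). A count of 0 at threshold 2 does not show that these genes were alike in the 2 lines. The 39 genes of cholesterol and fatty acid synthesis had the lowest median of these lists, -0.14, with 34 below 0 and 5 above, each short of the threshold. The 75 genes of cell cycle and DNA replication had a median of 0.06, with 49 above 0.

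**Figure D4:**
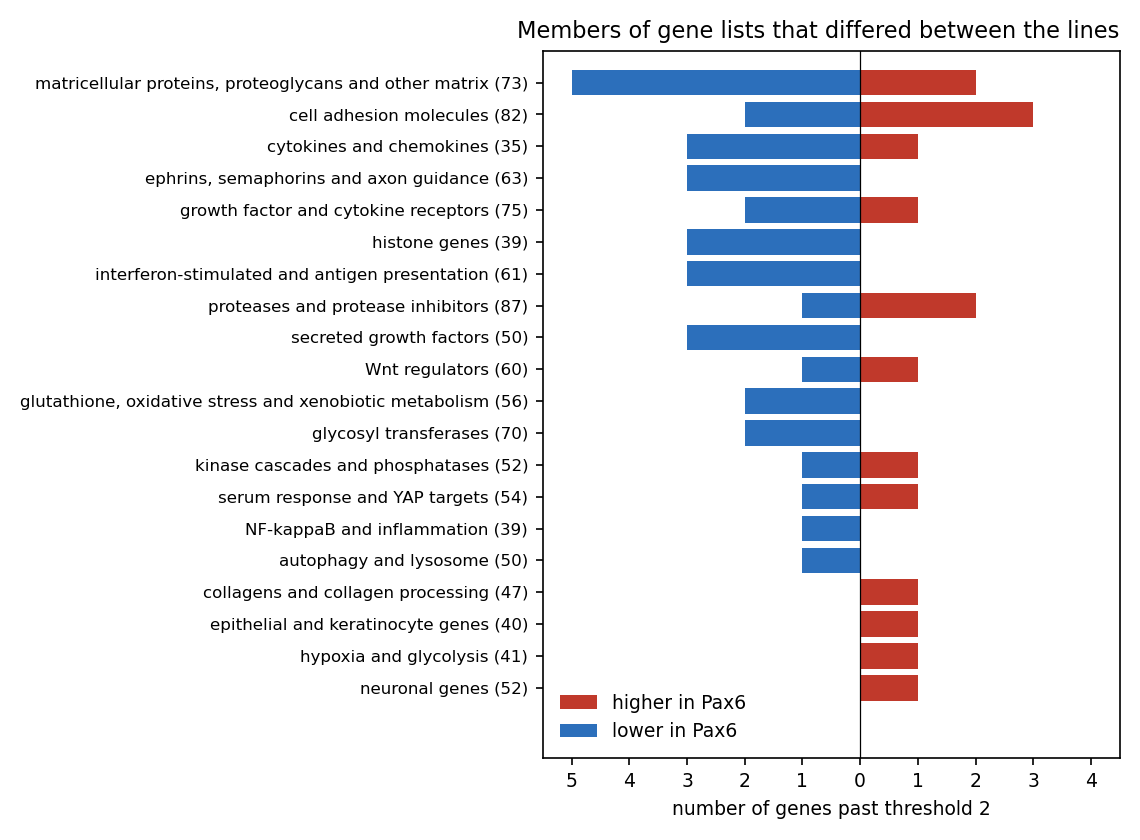
Number of genes past threshold 2 in each of the 20 gene lists with at least 1 such gene, higher in Pax6 to the right and lower to the left of 0, with the number of the list's genes on the array in brackets. The matrix list reaches 5 lower and 2 higher genes, and no list exceeds 3 higher genes.

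The study tested 29 genes by PCR, 26 of which were matched to a probe in the annotation used here. Adamts2, Ephb2 and Ngfb were not matched. The study reports array results for them, so the missing match does not mean that the array lacked them. Since they were chosen by the study on these samples, their counts are not independent evidence of a direction. Crtap, Sphk1 and Cdh5 were higher and 8 were lower, namely Dkk3, Ncam1, Pdgfb, Ngef, Mgat3, St6gal1, Pdgfrb and H1f2, with a median log2 fold change of -0.41. The other 15 did not pass threshold 2. Of these, Vegfa, an inducer of vessel growth, was at 717 and 684 in Pax6, 1061, 1065 and 1528 in Pax6(5a), and 1715, 2064 and 1498 in control, a 1.71-fold difference (adjusted p = 0.027). Tgfbi, a matrix protein of the cornea, was at 95.9 and 163 in Pax6, 201, 224 and 247 in Pax6(5a), and 337, 354 and 362 in control (adjusted p = 0.026). Its adjusted p was 5.2e-04 without the Pax6 array of passage 15, which stood apart from that of passage 9 (5.2e-04 to 0.19 over all alternatives). Bdnf, a neurotrophin, was at 216 and 211 in Pax6, 144, 144 and 151 in Pax6(5a), and 65.8, 70.6 and 81.9 in control, a 1.46-fold difference under the limit of 1.5 (adjusted p = 0.012). Klk8, a serine protease, was at 512 and 946 in Pax6 and 416, 424 and 386 in Pax6(5a) (adjusted p = 0.063, and 5.4e-04 without the Pax6 array of passage 9, within 5.4e-04 to 0.27). Edn1, which codes for the vasoconstrictor endothelin, was at 145 and 162 in Pax6 and 105, 112 and 79.7 in Pax6(5a) (adjusted p = 0.033). Ccn2, a matricellular target of YAP, was at 1508 and 1533 in Pax6, 1252, 1344 and 892 in Pax6(5a), and 301, 302 and 205 in control, so that both lines stood far above control and close to each other (adjusted p = 0.40). The others had adjusted p between 0.059 and 0.87.

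The level of the difference was also followed along the chromosomes, as annotated by RefSeq on GRCm38.p6, and is given as a description. Over the 6958 genes detected on all 8 arrays, the median log2 fold change was 2.11e-04. It was 0.17 over the 391 such genes of chromosome 8, with 76.0% of them above 0, and it was 0.17 at the earlier and 0.14 at the later passages. On chromosome 8 the median difference of single arrays from the control mean was 0.15 and 0.18 in the Pax6 line, against -0.0072, -0.0049 and 0.02 in the Pax6(5a) line. Chromosome 12 had a median of 0.08 over 210 genes and 7 of its 463 tested genes were higher, with 0 lower, Serpina1b, Serpina1d and Nrcam among the 7. Chromosome 3 had a median of 0.10 and chromosome 1 one of -0.07, while chromosome 2 stood near 0, with 9.53e-05 over 583 genes. Among runs of 15 neighbouring detected genes, the highest median was 0.42, from Eif5 to Cdca4 on chromosome 12, where the Pax6 line was above control by 0.09 and the Pax6(5a) line below it by a log2 difference of -0.33. The next were 0.41 from Cpne2 to Cklf and 0.35 from Samd1 to Trir, both on chromosome 8, against a range of -0.28 to 0.42 over all 6678 runs. Of the genes described above, Il15, Cdh5 and Pdgfrl (higher) and Angpt2 and Gas6 (lower) lie on chromosome 8. The part of these chromosome-wide levels in the differences of single genes was not tested.

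**Figure D5:**
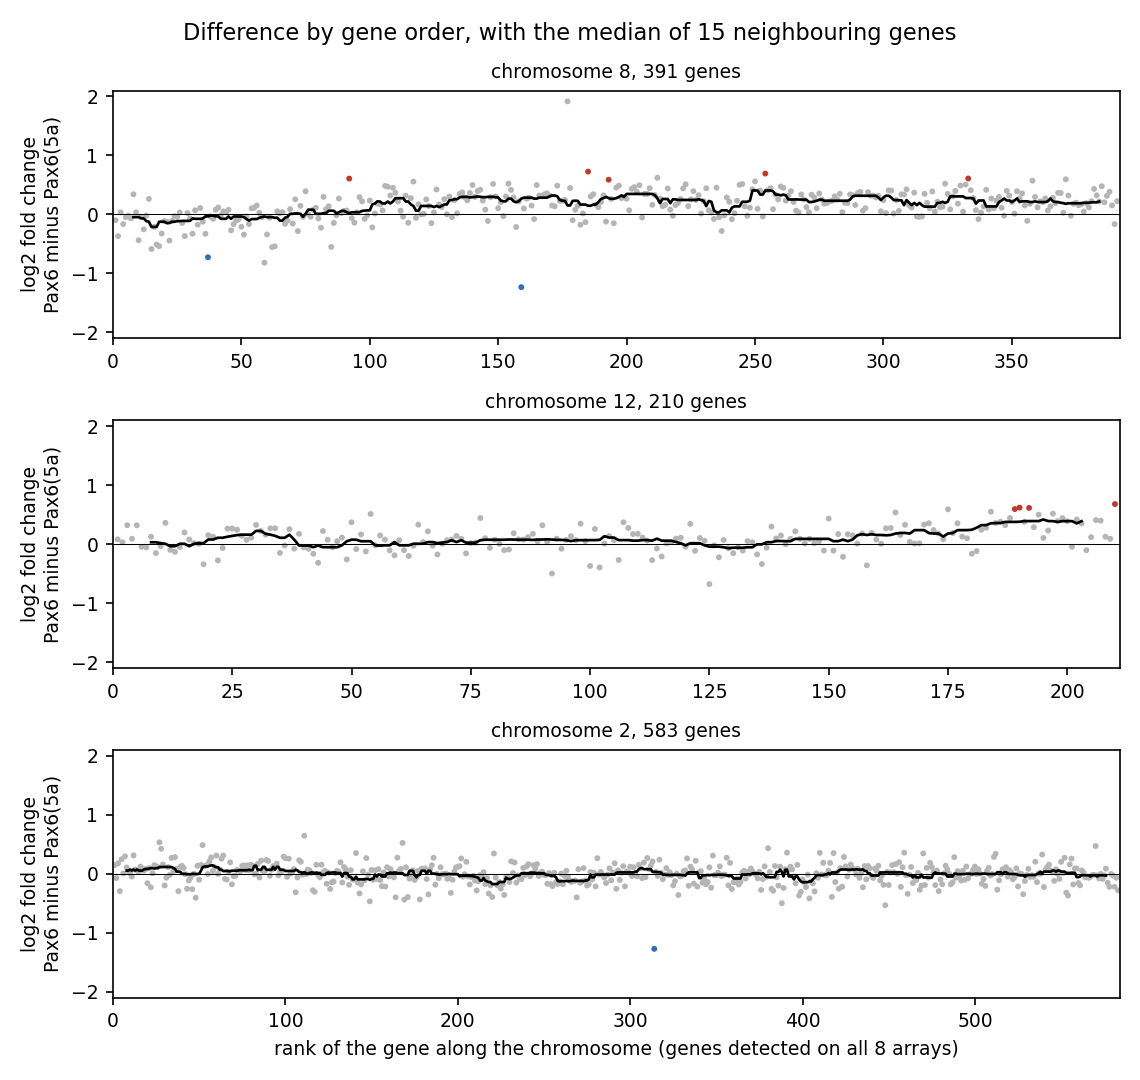
Log2 fold change of the Pax6 line against the Pax6(5a) line for the genes detected on all 8 arrays, in their order along chromosomes 8 (391 genes), 12 (210 genes) and 2 (583 genes), with genes past threshold 2 in red (higher) and blue (lower). The black line is the median of 15 neighbouring genes, which lies above 0 over most of chromosome 8, has its highest point on chromosome 12 and stays near 0 on chromosome 2.

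A core of the paired-domain site was looked for in the promoter windows of the called genes, since the isoforms are known to differ in DNA binding. The letters TTCACGC were searched on both strands of such 300-base windows, and were present in 1.26% of all 32851 windows of the RefSeq table. They were present in 0 of 37 windows of the higher genes and in 1 of 78 windows of the lower genes, that of Osbp2. The shorter TCACGC, which every TTCACGC contains, was present in 6.68% of all windows, in 1 of 37 windows of higher genes (Ggct) and in 6 of 78 windows of lower genes (Cyp1b1, Ifitm3, Lyzl4, Osbp2, Phactr1 and Sema5a). These windows stand for 27 of the 40 higher and 49 of the 68 lower genes. A match is a description of the letters and not a binding site, and a missing match says only that these letters are not in this window.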

How the data were processed

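RNA of 8 Illumina Mouse Ref-8 arrays was compared. The authors deposited signal intensities before and after quantile normalization, with a detection p-value for each probe and array. The software that read the arrays, any background correction and the method of the detection p-values are not given in the sources used here, and the submitters' processing notes name limma without a version. Quantile normalization of the deposited unnormalized intensities was repeated and gave the authors' normalized intensities to within 5e-06. The deposited normalized intensities were put on the log2 scale with no pseudocount and no filter. Median unnormalized intensities were 63.6 to 70.6 per array.

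All 8 arrays entered 1 limma 3.58.1 fit (R 4.3.3) with a mean for each line and 5 residual degrees of freedom. The contrast was Pax6 minus Pax6(5a), with Benjamini-Hochberg adjustment over 24613 probes. Of these, 20984 name 1 gene, 1 names several and 3628 name none. The platform's gene identifiers were matched to RefSeq for 20976 probes, which updated 7 symbols. A gene is given by its probe of highest mean log2 signal. Named were the 15 genes with the largest differences each way past threshold 2 with no overlap of arrays and detection on every array of the higher line, up to 4 members of each gene list each way, the genes the study tested by PCR, and Pax6. Lamc1, Serpina1a, Serpina1e, Myoz2, Plce1, Tns1 and the genes in the motif search, the chromosome account and the closing observations fall outside that rule and were named after their values were seen. Lower bounds, given where no array of the lower line detected a gene or its mean signal there was below those arrays' mean detection limit, set the mean of the higher line against that of the lower line with each array raised to the lowest signal among its detected probes. They depend on that array's limit.

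The members of the comparison and the 28 lists were chosen with earlier results of these data known. The lists hold 1627 genes, of which 1444 were matched to a probe and are counted as on the array. Lists are described by counts and medians without a test. Alternatives were cyclic loess or median scaling in place of quantile normalization, background correction by normexp (offset 50) or neqc (offset 16), a robust prior with a variance trend, a filter keeping probes that 2 or more arrays detected, the 5 arrays alone, passage as a covariate, passage stage or label number as a block, preparations of 1 passage averaged, culture as a random block, and each array left out, where leaving out control arrays was added after seeing the data. The scripts were tested on simulated data. Figures were drawn with matplotlib 3.10.9 in Python 3.11.15. Items withheld for evaluation, and the study's PCR, chromatin and growth measurements, are not reported here.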

Additional observations from a re-analysis of the deposited data

Results flagged for a closer look

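Fut8, a fucosyltransferase of N-glycans that the study tested by PCR, ran in opposite directions at the passage stages. Pax6 minus Pax6(5a) was -0.23 on the log2 scale at the earlier passages and 0.085 at the later ones, and this difference was not tested. Its signals were 113 and 138 in Pax6, 131, 134 and 130 in Pax6(5a), and 184, 220 and 209 in control. The Pax6 and Pax6(5a) arrays overlapped, and the gene was not called (adjusted p = 0.87). Groups of 2 and 3 arrays are too small for a search for single outlying arrays.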

How the results depend on the processing

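Counts of probes are given for threshold 1, threshold 2, an adjusted p under 0.05, and last the called genes of the lists, with 41, 140, 412 and 50 in the reported analysis. They were 14, 47, 269 and 19 with neqc, 100, 228, 910 and 76 with passage number as a covariate, and 7, 43, 147 and 19 with same-passage preparations averaged. Passage stage as a replicate block gave 106, 218, 919 and 76. Only the 5 arrays of the 2 lines gave 23 probes past threshold 1. Leaving out 1 array at a time gave 20 to 54, 70 to 173, 174 to 526, and 28 to 61. The replicate numbers of the labels are shared by control and Pax6(5a) arrays alone, whose deviations correlated at 0.10 and 0.12 for equal and 0.09 and 0.09 for crossed numbers, so they share only a number. As a replicate block they gave 26 probes past threshold 1. The other alternatives left each of these counts within 1.5 times. All 108 called genes kept their direction under every alternative in which they were tested, 107 of them under the filter on detection. With an array left out this follows from the arrays of the 2 lines not overlapping. Threshold 2 was kept under all 20 by 27 of the genes. Of the 58 called genes named, neqc lost 37, averaging 34, leaving out the Pax6 array of passage 9 lost 26 and leaving out that of passage 15 lost 23. The log2 fold change of Fut8, -0.08 with all arrays, was between -0.22 and 0.070 with 1 array left out, 0.070 without the Pax6 array of passage 9 (adjusted p = 0.93, range over all alternatives 0.51 to 0.93). Gains were Ccn2 (adjusted p = 0.0030) and Edn1 (0.0021) with the label number as a block, Vegfa with the passage stage as a block (0.0090), and Edn1 and Tgfbi with passage as a covariate or block (0.0034 and 0.0029, and 6.0e-04 and 8.0e-04). The cause of these changes was not tested. Genes near the detection limit are known only as bounds, and with 2 Pax6 arrays 1 array moves many calls.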

Other observations

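Some genes differed widely between single arrays without passing threshold 2, and are named here after their values were seen. Hmox1, the stress-induced heme oxygenase, was at 5284 and 4287 in Pax6 and at 2795, 2729 and 263 in Pax6(5a), with the low value at passage 13 (adjusted p = 0.40). Psmc1, a subunit of the proteasome cap, was at 61.4 and 62.5 in Pax6 and at 531, 72.8 and 631 in Pax6(5a), so that the 2 preparations of passage 8 stood apart (adjusted p = 0.31). Fbxw5, a substrate receptor of a ubiquitin ligase, was at 767 and 59.1 in Pax6, 58.1, 58.7 and 62.7 in Pax6(5a), and 948, 859 and 63.3 in control (adjusted p = 0.58). In Fbxw5 the high arrays were the Pax6 array of passage 9 and the control arrays of passage 13.

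Of the 140 probes past threshold 2, 20 name no gene in the annotation used, 9 higher and 11 lower in Pax6, and are not described further.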
